A study of Mus musculus with 4 samples.

Results

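The 168 miRNAs described here are the rows of the authors' deposited table named mmu-miR-6896 to mmu-miR-7094, any letter or arm, out of 1167 rows in all. They were taken by registry number alone, from a stretch of the miRNA registry that holds mostly mirtron-like annotations, and they come from 132 precursors. Rows numbered below 1000, of which there are 641, served as the comparison. The libraries hold small RNA of the main olfactory epithelium, the tissue of the nose in which the olfactory sensory neurons lie, and the mice were C57BL/6 males aged 3 months. Of the 4 libraries, 2 were from wild-type mice and 2 from AC3-/- mice, which lack adenylyl cyclase 3, the cAMP-producing enzyme through which olfactory sensory neurons respond to odours. The comparison of genotypes asks how small RNAs of this tissue differ without that enzyme. Whether each library came from a different mouse is not in the labels, so the spread behind every p-value may be technical. These libraries hold no measure of AC3 mRNA with which to check the genotype.

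Most miRNAs are cut from long primary transcripts by the nuclear enzyme Drosha, and the hairpin that is released is cut again by Dicer into a 5p and a 3p arm. A mirtron is a hairpin that is released by splicing instead. In the conventional kind the hairpin is the whole of a short intron, so that both of its ends are splice sites. In the tailed kinds only 1 end of the hairpin is a splice site, and the remainder of the intron forms a tail that is trimmed away before Dicer cuts. Introns end in AG after a run of pyrimidines (C and U), and begin with GU.

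The following hairpins show 3 of the arrangements found among these miRNAs, 5′ to 3′, with the listed mature miRNA in capitals (RefSeq sequences, GRCm38.p6). Mir7043 gives the most abundant of them. It lies on the minus strand at chr6:116645978-116646047, and its last bases are the last bases of a 1589-base intron of Rassf4, which encodes a Ras-association domain protein. Mir6958, on the minus strand at chr15:89185465-89185537, is a whole intron of Dennd6b, a protein of membrane traffic, from its first base to its last. Mir6977, on the minus strand at chr17:56418846-56418909, begins at the first base of an intron of Ptprs, a receptor tyrosine phosphatase, and stops 15 bases before its end.
Mir7043: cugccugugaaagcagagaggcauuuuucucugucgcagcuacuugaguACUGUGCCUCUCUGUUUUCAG
Mir6958: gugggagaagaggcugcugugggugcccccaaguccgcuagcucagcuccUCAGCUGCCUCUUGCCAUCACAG
Mir6977: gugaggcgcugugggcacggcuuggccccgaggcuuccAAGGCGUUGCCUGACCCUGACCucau

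Nearly all of the hairpins sat at the downstream end of an intron. Of 117 hairpins with a RefSeq position, 114 (97.4%) lay in an intron on the same strand in GENCODE M21, and 112 (95.7%) ended within 2 bases of the end of that intron. The end was the very last base in 111 of these, and Mir7010, in Gucy1a1, ran 1 base past it. Among 312 hairpins numbered below 1000, 146 (46.8%) lay in an intron on their strand, and 2 (0.641%) ended within 2 bases of its end, Mir877 in Abcf1 and Mir382 in the noncoding gene Mirg. Where several introns held a hairpin, the one with the nearest end was taken, for both sets alike. Positions were not used to pick single miRNAs, but the number range holds mostly mirtron-like annotations. A mirtron hairpin has an end at a splice site by definition. The share at intron ends therefore describes what was annotated and is no independent finding against the rows numbered below 1000. How the registry came to hold these hairpins, and whether splicing releases them, was not tested.

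**Figure D1:**
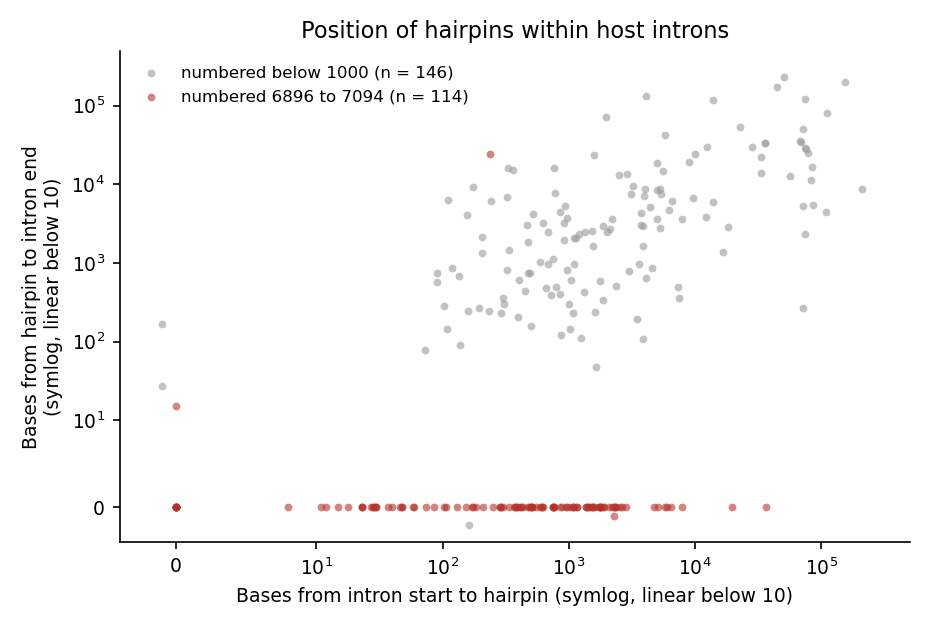
Each point is 1 hairpin that lies in an intron on its own strand, with the bases from the intron's start to the hairpin on the x axis and the bases from the hairpin to the intron's end on the y axis (both linear below 10 and logarithmic above). The hairpins from miR-6896 to miR-7094 (red) lie along 0 on the y axis with the exceptions of Mir7036b, Mir6977 and, 1 base past the end, Mir7010, while those numbered below 1000 (grey) spread over both axes.

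The tailed arrangement was the common one. Of the 112 hairpins at an intron end, 7 filled the whole intron and 105 had a stretch of intron before them. That stretch had a median of 588 bases (quartiles 154 and 1557) and ran from 8 bases, before Mir7032 in Hip1r, to 36205 bases, before Mir6899 in Klf7, a transcription factor of the nervous system. The hairpins themselves were short, with a median of 65 bases (52 to 109). Their introns had a median of 572 bases, against 5478 bases for the introns that hold hairpins numbered below 1000. Besides Mir6958, the 7 that filled an intron were Mir7068 in Cherp, Mir7091 in Dnase1l1, Mir6944 in Dbn1, Mir7088 in Mst1, Mir7080 in Cpne7 and Mir7058 in Lat, in introns of 67 to 96 bases. The hosts of the 112 were protein-coding genes in 110 cases. The other two were Mir7094-1 and Mir7094-2, copies that give the same mature miRNA and lie in introns of the immunoglobulin segments Ighv1-2 and Ighv1-5. The 112 hairpins had 111 hosts, and Cmip held 2 of them.

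The 5 hairpins that did not end at an intron end were of different kinds. Mir6977 began at the first base of its intron, the reverse arrangement. Mir7036b lay 23955 bases before the end of an intron of Add1, which encodes a protein of the membrane skeleton. Mir6901, Mir7025 and Mir6925 were not wholly inside an intron and overlapped exons of Sned1, Pdgfra and Kif1c, although their listed arms lay in introns of these genes. Of those arms, miR-6901-3p ended at the last base of its intron.

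The mature sequences also differed from those numbered below 1000. The 10 most abundant of the 168, with miR-7070-3p, which had the smallest p-value among them, are given here where RefSeq holds them, with the seed (bases 2 to 8, which pair with target mRNAs) in capitals; miR-6970-3p and miR-6952-3p are named only. In all, 150 of the 168 matched a RefSeq mature sequence by name.
miR-7043-3p: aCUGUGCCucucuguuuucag
miR-7083-5p: uCGGGGCUggacaagcagaga
miR-6994-3p: aACGAUCUucuccgucuuugc
miR-6948-5p: aGUUCAGAcaggacugugacac
miR-6977-3p: aAGGCGUUgccugacccugacc
miR-7073-5p: uGGGGGAAuugaaagacuauga
miR-6899-3p: uUGUCCUUcugugucuucugcag
miR-6940-3p: uUACCUUCcgugcuugcccgcag
miR-7070-3p: cAGGCUCUccuucccuccag

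Of 78 3p arms with a sequence, 57 (73.1%) ended in AG and 45 of these ended in CAG (57.7% of the 78), as in miR-7043-3p, miR-6899-3p, miR-6940-3p and miR-7070-3p above. Among 264 3p arms numbered below 1000 the shares were 17 (6.44%) and 5 (1.89%). The 3p arm stopped exactly at the last base of the intron in 56 of the 78, 1 base before it in 8 and 2 bases before it in 12, as miR-6994-3p (capitals) does at chr19:11923728-11923800, plus strand, in an intron of Patl1, a factor of mRNA decay.
Mir6994: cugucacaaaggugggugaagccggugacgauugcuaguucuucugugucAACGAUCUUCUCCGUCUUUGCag
All 56 that stopped at the last base ended in AG, the letters that close an intron. An AG ending there follows from the annotated position and is no separate finding. 5p arms seldom began with GU, the letters that open an intron, in either set, with 3 of 72 (4.17%) here and 9 of 235 (3.83%) below 1000. Of 69 5p arms with a hairpin, 58 (84.1%) began exactly 5 bases after the hairpin's annotated start, against 23 of 224 (10.3%) below 1000. Whether that offset comes from how the hairpins were annotated was not tested. The motifs were searched as the first or last letters of the mature sequence on its own strand.

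The arms of these miRNAs differed in base composition. The 3p arms had a median of 71.4% pyrimidines (52.4% to 90.5%), and the 5p arms a median of 33.3% (14.3% to 59.1%). Below 1000 the medians were 52.2% for 3p arms and 50% for 5p arms. Since the AG of an intron's end follows a run of pyrimidines, the high share in 3p arms is not independent of their annotated position. The GC content had a median of 53.5% in 3p arms and 55.8% in 5p arms, against 47.6% and 45.5% below 1000. Lengths were alike, with a median of 22 bases for each arm in both sets.

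**Figure D2:**
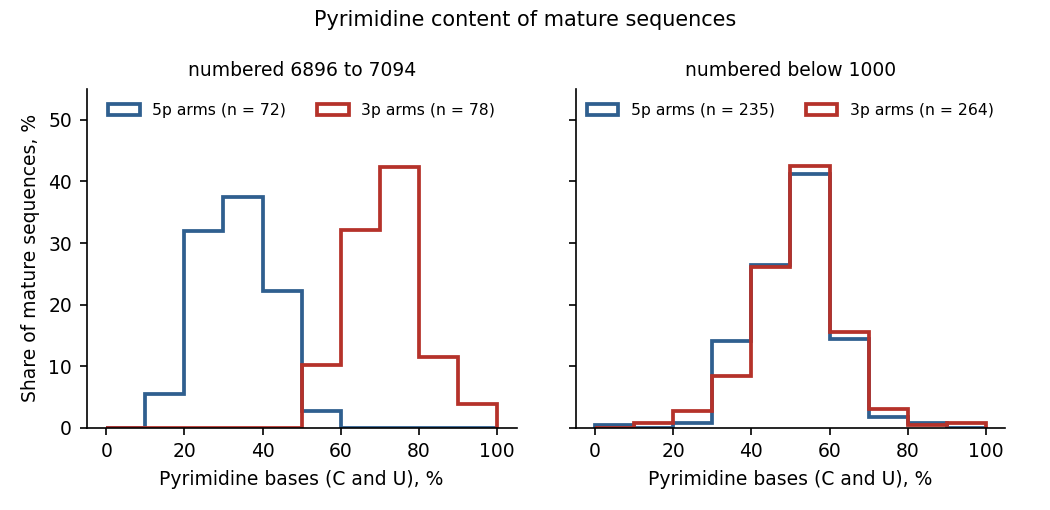
Share of mature sequences (y axis, %) by their content of the pyrimidines C and U (x axis, %, in steps of 10) for 5p arms (blue) and 3p arms (red). From miR-6896 to miR-7094, the 72 5p arms have a median of 33.3% and the 78 3p arms of 71.4%, with little overlap, while the arms numbered below 1000 lie over each other.

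Seeds were nearly all different. The 150 sequences had 145 seeds, and 5 seeds were shared by a pair of them. None of the 150 shared a run of 16 bases with another mouse mature sequence in RefSeq. A few had the seed of a more abundant miRNA numbered below 1000. The most abundant of these were miR-6966-5p with the seed of miR-542-5p, miR-6932-3p with that of miR-26a-2-3p and miR-26b-3p, and miR-6985-3p with that of miR-673-5p. The match of miR-6932-3p with miR-26a-2-3p ends with the seed.
miR-6932-3p: uCUGUUCUgcuuccucugcag
miR-26a-2-3p: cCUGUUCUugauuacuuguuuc
miR-6932-3p had 0 and 1 reads in the AC3-/- libraries and 0 and 1 in the wild-type libraries, while miR-26a-2-3p had a level of 159 normalised reads.

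As miRNAs, they were scarce. A normalised read is a read divided by the library's size factor, and a level is the mean of the means of the 2 genotypes. Since adaptor ligation and PCR act unequally on different sequences, a level is no molecule number. The median level was 0.520 normalised reads (quartiles 0.266 and 1.35), against 36.7 (quartiles 3.62 and 627) for miRNAs numbered below 1000. Only miR-7043-3p, at 98.8, and miR-7083-5p, at 11.99, reached 10, so 166 of the 168 (98.8%) lay under it, against 230 of 641 (35.9%) below 1000. Low levels were not particular to this number range. The 84 rows numbered above it had a median of 0.847 (quartiles 0.443 and 3.32), and 78 of them (92.9%) lay under 10. The 210 rows numbered from 1000 up to the range had a median of 2.75, and 159 of them (75.7%) lay under 10. At the limits of the number range, miR-6896-5p had a level of 1.10 and miR-7094-3p of 0.218. Just outside it, miR-6715-5p had 7.12 and miR-7115-5p 0.445. RefSeq names 355 mature miRNAs in this range, of which 150 (42.3%) had a row in the table, against 519 of 677 (76.7%) below 1000.

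**Figure D3:**
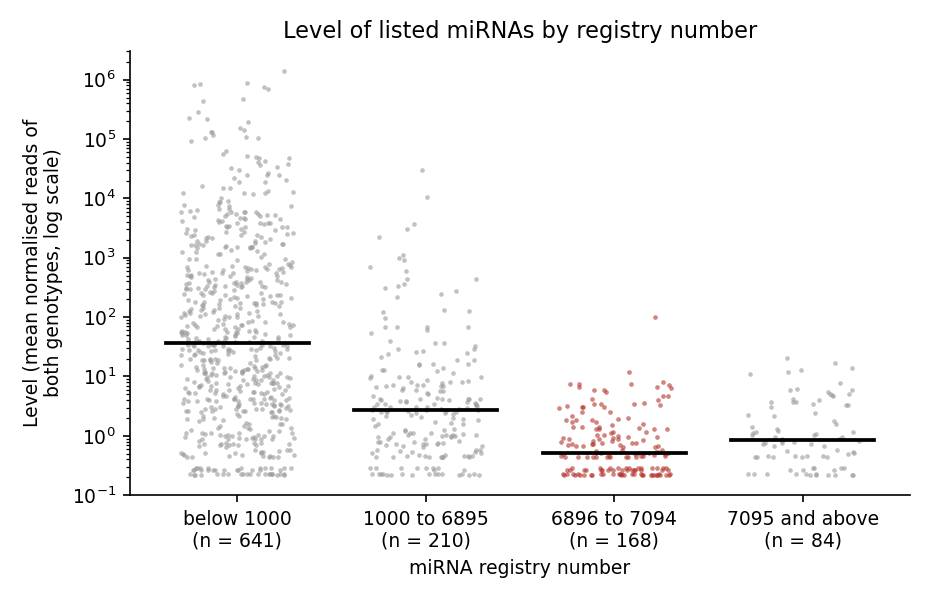
Level of each listed miRNA (y axis, mean normalised reads of both genotypes, log scale) by registry number (x axis), with a black bar at the median of each group. The 168 miRNAs from miR-6896 to miR-7094 (red) have a median of 0.520, and miR-7043-3p at 98.8 stands above the others of that range.

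In reads, the whole set was small. The 168 miRNAs had 1269 reads over the 4 libraries, worked back from the deposited means, with a median of 2 reads for each miRNA and 61 with a single read. miR-7043-3p held 29.9% of these reads. Reads were found in all 4 libraries for 20 of the 168 (11.9%), in 3 for 24, in 2 for 42 and in 1 for 82. Of the 587 miRNAs numbered below 1000 with library values, 437 (74.4%) had reads in all 4. A count of 0 in a library allows up to 3 reads, which is 2.61 to 3.51 normalised reads, more than the median level, so absence from a library says little. Such limits cover counting error only, since PCR reads without molecular identifiers are not independent molecules.

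Both arms had a row in 36 precursors, and neither arm was regularly the higher. The 5p arm had the higher level in 16, the 3p arm in 17, and the remaining 3 were level. With at least 1 normalised read in the higher arm, it was 5p in 10 and 3p in 7. Below 1000, 5p was the higher in 120 of 228. Single precursors were uneven in opposite ways. Mir7083, in an intron of Dock6, had 47 reads of the 5p arm and 2 of the 3p arm, and Mir7021, in Prdm2, had 24 and 1. miR-6952 had 2 reads of the 5p arm and 28 of the 3p arm, and Mir6966, in Narfl, had 3 and 18. Mir6948, in Acin1, a protein of RNA splicing and apoptosis, had 31 reads of the 5p arm and 16 of the 3p arm. Over all 168, 88 3p arms had 859 reads and 80 5p arms had 410, and 379 of the 3p reads were of miR-7043-3p.

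Before the genotypes are compared, 1 library has to be set apart. Over 428 miRNAs of the whole table with library values and a level of at least 10, the wild-type libraries, called a and b, lay 2-fold or more apart for 113, and the AC3-/- libraries for 26. Wild-type library b lay 2-fold or more from AC3-/- libraries a and b for 93 and 111, and wild-type library a for 42 and 52. The letters carry no replicate number, and why wild-type library b differs was not tested.

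None of the 168 miRNAs differed between genotypes at an adjusted p of 0.05 in the authors' deposited table, where 1 of all 1167 rows passed (0.0857%). The authors' deposited table gives an unadjusted p below 0.05 to 1 of the 168, miR-7070-3p, which was lower in AC3-/-. Of all rows in the authors' deposited table, that threshold was passed by 41 (3.51%), of which 23 were lower (1.97%) and 18 higher (1.54%). Both AC3-/- libraries were below both wild-type libraries for 17 of the 168 (background 13.1% of 1103 rows with library values), and above both for 9 (background 14.8%). Neither share, 10.1% and 5.36%, is above its background. A miRNA with reads in only 1 library cannot be counted in either, and 82 of the 168 were such. The shares are thus held down in a set this scarce, and the backgrounds are not like for like. In a limma fit to the recovered libraries, over 428 rows with a level of at least 10, none passed an adjusted p of 0.05 (0%) and 14 had an unadjusted p under 0.05 (3.27%); of the 168, miR-7043-3p and miR-7083-5p were in that fit, and neither had such a p.

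miR-7070-3p, from the last bases of an intron of the F-box gene Fbxw9, had 1 and 0 reads in the AC3-/- pair (a, then b) and 4 and 10 in the wild-type pair. These are 0.871 and 0 normalised reads against 4.25 and 11.7. Both wild-type libraries were higher, with 14 of the 15 reads between them. The authors' deposited table lists a log2 fold change of -1.14 for it (p = 0.0180, adjusted p 0.940). It lay under the level of 10 needed for the limma fit; with a minimum of 1, its limma log2 difference was -2.58 with a standard error of 0.79 and an adjusted p of 0.850. Its 5p arm had 1 and 0 reads in AC3-/- and 4 and 0 in wild type.

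miR-7043-3p had 87 and 63 reads in the AC3-/- pair and 54 and 175 in the wild-type pair. After normalisation these are 75.8 and 57.3 against 57.4 and 205. Wild-type library b alone was high, and wild-type library a lay at the level of AC3-/- library b. The limma log2 difference was -0.71 with a standard error of 0.65 and an adjusted p of 0.934. Its direction rested on wild-type library b: without that library the limma log2 difference was 0.20, with a standard error of 0.42 and an adjusted p of 0.919. Without wild-type library a it was -1.62, with a standard error of 0.40 and an adjusted p of 0.000589, in a fit that called 77 of 429 rows (17.9%) and in which the lone wild-type library is assumed to vary like the AC3-/- pair. miR-7043-3p ranked 297 of all 1167 by level.

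The next most abundant had few reads. miR-7083-5p had 9 and 13 reads in AC3-/- and 9 and 16 in wild type, and the genotypes overlapped (limma log2 difference -0.44, standard error 0.59, adjusted p 0.934). miR-6994-3p had 4 and 7 reads in AC3-/- and 6 and 14 in wild type, so that AC3-/- library b and wild-type library a were side by side at 6.37 and 6.38 normalised reads. miR-6977-3p, from the hairpin at the start of a Ptprs intron, had 2 and 0 reads in AC3-/- and 1 and 23 in wild type, all but 3 of its 26 reads coming from wild-type library b. miR-6970-3p had 8 and 0 reads in AC3-/- and 7 and 13 in wild type (6.97 and 0 normalised reads against 7.44 and 15.2), with wild-type library b the highest and no overlap. These last 3 were too scarce for the limma fit, and in the authors' deposited table they had adjusted p-values of 0.940.

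The other 5 of the 10 had few reads as well. miR-6948-5p had 11 and 8 reads in AC3-/- and 5 and 7 in wild type, with normalised values of 9.58 and 7.28 against 5.31 and 8.19. miR-7073-5p, from an intron of Cnot1, the scaffold of the main mRNA deadenylase, had 2 and 11 against 4 and 9. For miR-7073-5p the libraries of 1 genotype differed more from each other than the genotypes did. miR-6952-3p had 7 and 4 reads in AC3-/- and 10 and 7 in wild type, or 6.10 and 3.64 normalised reads against 10.6 and 8.19. miR-6899-3p had 2 and 6 reads in AC3-/- libraries and 9 and 8 in those of wild type. miR-6940-3p, from the centrosomal gene Cep170b, had 4 and 3 against 7 and 10. For these 3, each wild-type library was above each AC3-/- library, and the authors' deposited table gives unadjusted p-values of 0.293 for miR-6952-3p, 0.168 for miR-6899-3p and 0.1001 for miR-6940-3p.

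**Figure D4:**
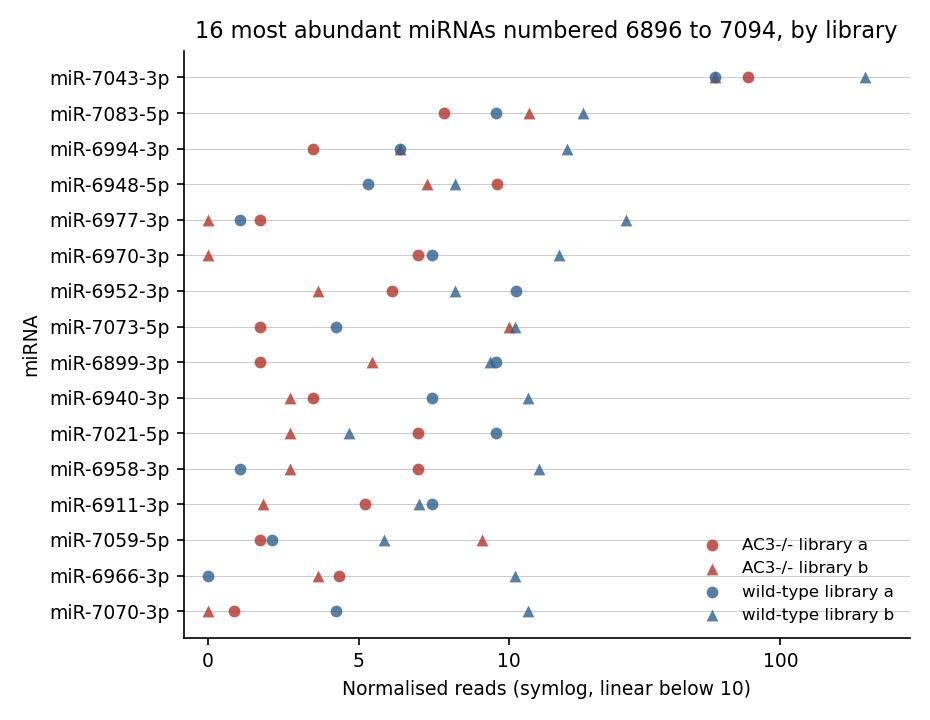
Normalised reads (x axis, linear below 10 and logarithmic above) of the 16 most abundant miRNAs from miR-6896 to miR-7094 (y axis), with AC3-/- libraries in red and wild-type libraries in blue, library a as circles and b as triangles. Wild-type library b stands far to the right for miR-7043-3p at 205 and miR-6977-3p at 26.9, where the other 3 libraries lie closer together.

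Summed over all 168, the AC3-/- libraries had 265 and 253 normalised reads and the wild-type libraries 235 and 545. The means were 259 ± 8.33 in AC3-/- and 390 ± 219 in wild type (SD, n = 2 libraries each), and wild-type library a was the lowest of the 4. An exact two-sided permutation test of the sums gave p = 1, where 2 libraries against 2 cannot go below 0.33. Without miR-7043-3p the sums were 189 and 196 in AC3-/- and 177 and 340 in wild type, so the high value of wild-type library b did not come from that miRNA alone. For the 3p arms the sums were 193 and 141 in AC3-/- and 147 and 403 in wild type, and for the 5p arms 72.3 and 112 against 88.2 and 141.5. The 168 made up 0.00296% of all normalised reads in the AC3-/- column of the authors' deposited table and 0.00316% in the wild-type column.

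The median log2 fold change of the 168 in the authors' deposited table was -0.02, with 88 below 0 and 80 above, beside -0.01 over all rows and 0.02 over rows numbered below 1000. These fold changes are shrunken, and miRNAs with a single read lay between -0.13 and 0.10. A median near 0 therefore says little in so scarce a set, and the medians beside it are not like for like. Among the 74 with at least 1 normalised read in the higher genotype, 50 were below 0 in the authors' deposited table and the median was -0.17. That cut was uneven between the genotypes. With 2 reads in 1 genotype, the mean was 1.06 to 1.17 in wild type, which passed, and 0.871 to 0.910 in AC3-/-, which did not. The 50 of 74 are therefore tilted by the cut, and no direction of the set is read from them. How much of the excess the cut gave was not tested. With at least 10, all 5 were below 0 in the authors' deposited table and the median was -0.62. These were miR-7043-3p, miR-7083-5p, miR-6994-3p, miR-6977-3p and miR-6970-3p, each highest in wild-type library b. All but miR-7043-3p reached 10 in wild type alone, so the cut fixed their direction. The direction differed with the wild-type library: among the 74, the AC3-/- mean was below wild-type library b for 46 and below wild-type library a for 30. Scaled to each genotype's total instead, 43 of the 74 and 71 of the 168 were lower, beside 311 of all 1167 rows, where the means as deposited gave 591.

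**Figure D5:**
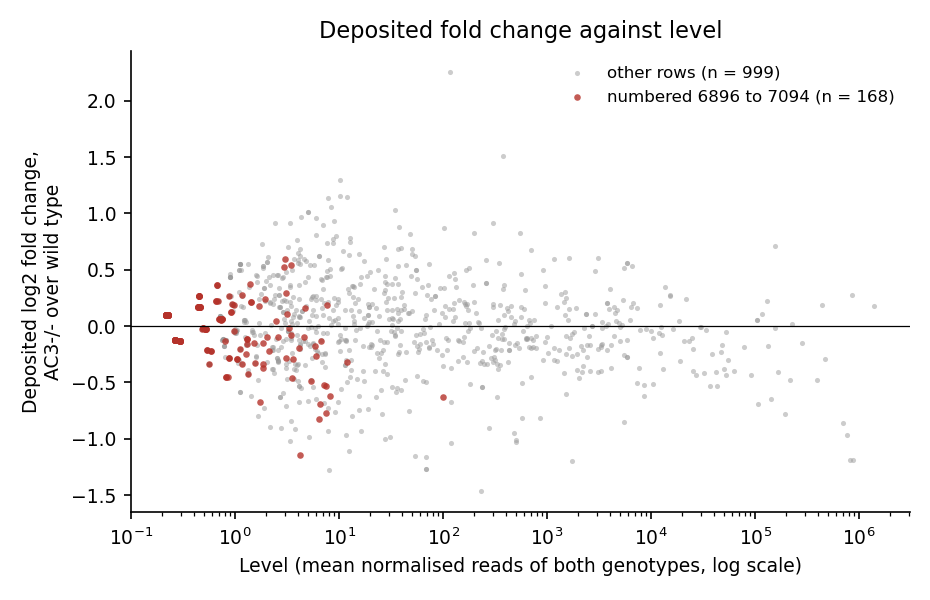
AC3-/- over wild type as log2 fold change from the authors' deposited table (y axis) against level (x axis, mean normalised reads of both genotypes, log scale) for the 168 miRNAs from miR-6896 to miR-7094 (red) and the other 999 rows (grey). The red points lie mostly at levels under 1 and around the line at 0, with miR-7070-3p lowest at -1.14. The fold changes are shrunken, which holds scarce miRNAs near 0.

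Reads in a single genotype were frequent and few. 40 of the 168 had reads in wild type only and 54 in AC3-/- only. The most reads of any of them were 6, for miR-7054-5p, with 1 and 5 in the wild-type libraries, and 4 in AC3-/-, for miR-6937-3p, all in library a. At 3 or more reads there were 7 in wild type only and 6 in AC3-/- only. The same counts were not made over all rows, so these are no result about the 168. In rows with library values, the AC3-/- libraries had 404895 and 411705 reads against 364161 and 305985 in wild type. These counts leave out 64 rows and are not the depth of the libraries. Over all rows, the deposited means summed to 8739148 normalised reads in AC3-/- and 12320877 in wild type. Whether depth gave the difference between 40 and 54 was not tested. miR-6932-5p, the other arm of the miRNA with the miR-26a-2-3p seed, had 1 and 11 reads in AC3-/- and 0 and 1 in wild type, with 11 of its 13 reads from 1 library.

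Known mouse mirtrons with lower numbers were far more abundant in some cases and gave no call either. Of 8 rows for miR-877, miR-1224, miR-702, miR-1981 and miR-1982, none reached an unadjusted p of 0.05, and their log2 fold changes had a median of -0.04, both by the authors' deposited table. Mir702 lay in no annotated intron here. miR-1981-5p, from a hairpin that fills an intron of Marc2, had 935 and 965 normalised reads in AC3-/- and 837 and 1213 in wild type. miR-877-5p had 98.4 and 134 in AC3-/- against 61.6 and 111, and miR-1224-5p, from a hairpin that fills an intron of Vwa5b2, had 8.71 and 6.37 against 1.06 and 11.7. In each of these the genotypes overlapped. They did not for miR-877-3p, lower in AC3-/- at 15.7 and 16.4 against 21.3 and 37.4, or for miR-702-3p, higher in AC3-/- at 1.74 and 5.46 (2 and 6 reads) against 0 and 0. miR-320 and miR-484, which need Dicer but not Drosha and are not mirtrons, had 3 rows, and the authors' deposited table gives none of them an unadjusted p below that threshold. Their main products were at normalised values of 2851 and 2764 in AC3-/- and 3194 and 4461 in wild type for miR-320-3p, and 820 and 776 against 821 and 1200 for miR-484, with wild-type library b the highest for both. Both were lower in AC3-/- without overlap, miR-484 only just, at 820 against 821. Of all rows with library values, 13.1% were lower in AC3-/- without overlap and 14.8% higher.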

How the data were processed

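Per the labels' protocols, small RNA of the main olfactory epithelium was ligated to adaptors, amplified and size-selected. Bowtie, DESeq 1.8.3 and GRCm38 appear, without role or order, per the submitters' processing notes. Which tool counted reads, with which miRBase release, is not given in the sources used here. In GEO the authors deposited 1 table, with a signal per genotype (the mean of the normalised reads of 2 libraries, per the file headers and the values), the authors' shrunken log2 fold change, and a p-value from the authors, raw and adjusted. No per-sample columns were left unused.

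Whole reads were worked back from the deposited means, each a whole-number combination of 2 steps; 1103 of 1167 rows, every one of the 168 among them, had 1 solution. This step was checked on simulated tables. Reads in these rows came to 404895 and 411705 for AC3-/- (a, then b) and to 364161 and 305985 for wild type. Size factors were 1.148, 1.099, 0.941 and 0.855. The limma fit (version 3.58.1, R version 4.3.3, trended variance, Benjamini-Hochberg adjustment) used log2(normalised reads + 1), which understates changes of low miRNAs; it was tested on simulated data. Hairpins and mature sequences were RefSeq's (GRCm38.p6) and introns GENCODE M21's, a build equal to the one in the notes.

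The miRNAs, lists and tests were chosen with earlier results of these data known. The rule for names took the 10 most abundant, those with an unadjusted p under 0.05, the 5 largest changes per direction with at least 10 normalised reads in the higher genotype, precursors with both arms at 10 or more, and up to 3 with the seed of a more abundant miRNA. The others were named after their values were seen. Alternatives changed the pseudocount, filter, scaling, libraries, arms and intron distance.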

Additional observations from a re-analysis of the deposited data

How the results depend on the processing

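No paired analysis was possible because the table gives 1 mean per genotype and the recovered libraries carry no replicate numbers. No miRNA of the 168 passed the authors' adjusted p, also when adjusted over rows with a level of at least 10; there, none had an unadjusted p under 0.05 (0, against 1). With 1 library left out, limma called 0 to 1 of them, the 1 being miR-7043-3p without wild-type library a, the log2 ratio of their share of the reads in rows with library values ran from -1.10 to 0.23, and their median log2 change from -0.24 to 0.52. As a share of the whole table that ratio was -0.09, and of rows under 10000 it was -0.56. The median log2 fold change of -0.02 became -0.62 with at least 10 normalised reads in the higher genotype and -0.63 with at least 100. Neither value shows a direction of the set. At 10, all but miR-7043-3p passed through wild type alone, and at 100 only miR-7043-3p was left, also through wild type alone. In other settings limma called none. Scaling to totals moved the median log2 ratio by 0.15 over all rows and to 0.03 for the 168. Counting identical rows once raised their median level to 1.43. The median level of the comparison rows was 9.12 over all rows outside the range. With a higher arm of at least 10 normalised reads, 5p was the higher in 100% (1 precursor) and the hairpin ended at the intron end in 100% (2 hairpins). The median miRNA had 2 reads, which limits what could be detected.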

Other observations

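Outside the number range, 22 hairpins also ended within 2 bases of an intron end and gave 31 rows, with levels from 0.218 to 987 normalised reads and a median of 2.85. 7 of the 31 reached 10. The authors' deposited table gives none of the 31 an unadjusted p below 0.05 (background 3.51%). The following were named after their values were seen. miR-7226-3p, from the end of a 112-base intron of Ptprf, which encodes a receptor tyrosine phosphatase related to that of the Ptprs host, had 18.3 and 10.01 normalised reads in the AC3-/- pair (a, then b) and 10.6 and 16.4 in the wild-type pair. miR-3097-5p, from the end of an intron of Rgs12, a regulator of G-protein signalling, had 11.3 and 15.5 in AC3-/- against 3.19 and 7.02, with p = 0.108 in the authors' deposited table. Its 3p arm had 9.58 and 7.28 against 9.56 and 5.85, and overlapped. miR-3064-5p, from an intron of the RNA helicase gene Ddx5, had 4.36 and 4.55 against 7.44 and 15.2, while its 3p arm had 4.36 and 13.7 against 5.31 and 16.4.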
